A study of Rattus norvegicus with 12 samples.

Results

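Protein kinase C (PKC) isoforms were followed by microarray in rat hippocampal neurons that had been through oxygen-glucose deprivation (OGD), a culture model of stroke. A list of 8 isoform genes was drawn up by name, and probes were assigned to a gene through the RefSeq transcript printed beside each probe. Of the 8 genes, 6 had a probe: Prkcb of the conventional class, Prkcd, Prkce and Prkch of the calcium-independent class that answers to diacylglycerol, and Prkci and Prkcz of the atypical class. They were read by 9 of the 30367 probes that are not controls. No probe was matched to Prkca or Prkcq, which were not analysed here. Where a gene had more than 1 probe, the probe with the highest mean signal over the 12 arrays was used, and the other probe is given beside it. Prkcd, Prkce and Prkcz were among the genes the study picked out on these same arrays, so their direction here is not independent evidence. The study also followed Prkcd and Prkce by quantitative PCR, which was not read here.

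The cultures were prepared from hippocampi of Wistar rat embryos at embryonic day 18 and kept for 14 to 15 days before the experiment. OGD cultures were deprived of glucose and oxygen in an anaerobic chamber, in a saline with sucrose in place of glucose, and then returned to their conditioned medium for 7 h or 24 h (groups OGD 7h and OGD 24h). Control cultures received the same saline with glucose in normal air for the same period and recovered for the same time (Ctrl 7h and Ctrl 24h). Each group had 3 arrays from 3 independent cultures, without genetic modification in any group. The methods describe the cultures as neurons with a minority of glia, so every value is a mean over the cell types of a dish. A lower value can come from fewer cells of a type or from less of the RNA in each cell, and in these bulk samples the 2 cannot be told apart.

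PKC isoforms are serine/threonine kinases that carry signals from receptors at the membrane. Phospholipase C splits a membrane lipid into diacylglycerol and a messenger that releases calcium. Conventional isoforms need both signals, the next class needs diacylglycerol alone, and atypical isoforms respond to neither and are steered by protein partners. In neurons the family acts on transmitter release, receptor trafficking and growth of processes, and PKCδ and PKCε, the products of Prkcd and Prkce, are often set against each other in studies of ischemic injury.

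The promoters of Prkcd and Prkce are shown because these are the 2 members of one class whose signals moved in opposite directions. The 250 bases before the annotated start were taken from RefSeq on build GRCr8, which is not the build the array was designed on, and GC boxes (GGGCGG on either strand) are in capitals. Prkcd lies on the minus strand at chr16:5805840-5806089 and Prkce on the minus strand at chr6:14204289-14204538.
Prkcd: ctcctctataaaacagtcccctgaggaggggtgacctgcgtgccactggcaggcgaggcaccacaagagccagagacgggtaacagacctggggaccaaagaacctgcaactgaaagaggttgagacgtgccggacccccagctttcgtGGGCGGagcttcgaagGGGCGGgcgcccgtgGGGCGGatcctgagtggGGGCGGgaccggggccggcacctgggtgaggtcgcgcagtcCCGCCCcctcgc
Prkce: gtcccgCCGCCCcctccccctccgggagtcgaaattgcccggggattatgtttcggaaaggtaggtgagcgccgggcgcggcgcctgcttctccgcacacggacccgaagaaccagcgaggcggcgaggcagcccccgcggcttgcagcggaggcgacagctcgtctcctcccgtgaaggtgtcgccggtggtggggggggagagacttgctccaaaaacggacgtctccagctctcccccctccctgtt
The Prkcd window held 5 GC boxes and the Prkce window 1, and 30.5% of the 33469 RefSeq promoter windows of this length held at least 1. The window of Prkcz, an isoform that fell, also held 5, and that of Prkci held 2. GC content was 67.6% for Prkcd and 68.8% for Prkce, against a median of 51.2% over all windows. Neither window held the AP-1 motif TGANTCA, which 6.34% of all windows held, or the cyclic AMP response element core TGACG, which 18.2% held. The hypoxia response core, ACGTG or GCGTG on either strand, was matched 2 times in the Prkcd window and 0 times in the Prkce window, and 36.7% of all windows held it. It was matched 2 times in the Prkci window and 0 times in the Prkcz window. These matches describe letters in the windows, and binding was not measured.

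The arrays had 42877 spots that are not controls, and 78.3% to 87.1% of them were well above background. The median intensity of an array was lower after OGD at 7 h (234 to 426) than in its controls (447 to 660), and at 24 h ranged from 131 to 546 after OGD and from 402 to 477 in controls. The first OGD 24h replicate stood apart with the median of 131, the lowest of the 12 arrays. Values below are log2 signal above the median probe of the same array, so a value of 1 is a signal at a fold of 2 over that median. The level of 1 probe cannot be set against that of another probe, so isoforms are not ranked by level. All 9 PKC probes were well above background on all 12 arrays, and none was saturated.

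Of the 6 isoforms, 3 passed the test at one time or both. Prkcd rose at 24 h, Prkce fell at 24 h, and Prkcz fell at both times, each by a fold of 2 or more where it passed. The test was limma with all 4 groups in 1 fit, at an unadjusted p below 0.05. After Benjamini-Hochberg adjustment over all 30367 probes no PKC isoform passed at either time, and neither did any other probe (lowest adjusted p 0.117 at 7 h and 0.209 at 24 h). Unadjusted, 3590 probes passed at 7 h and 4160 at 24 h.

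At 7 h, 0 of 6 isoforms were called higher and 1 was called lower, while 4.79% of all probes were called higher and 7.03% lower. With a fold of 2 also required the counts were the same, beside 2.08% of all probes higher and 1.66% lower. At 24 h, 1 of 6 was called higher and 2 were called lower, beside 7.51% of all probes higher and 6.19% lower. Those 3 also passed the fold of 2, which 3.71% of all probes did upwards and 1.96% downwards. The median change of the 6 isoforms was -0.28 at 7 h and -0.65 at 24 h on the log2 scale, against -0.06 and 0.01 over all probes. With replicate 1 of OGD 24h left out, 1 higher and 2 lower were again called at 24 h, but with changes of 0.89 for Prkcd, -0.59 for Prkce and -0.66 for Prkcz, so that 0 reached the fold of 2.

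**Figure D1:**
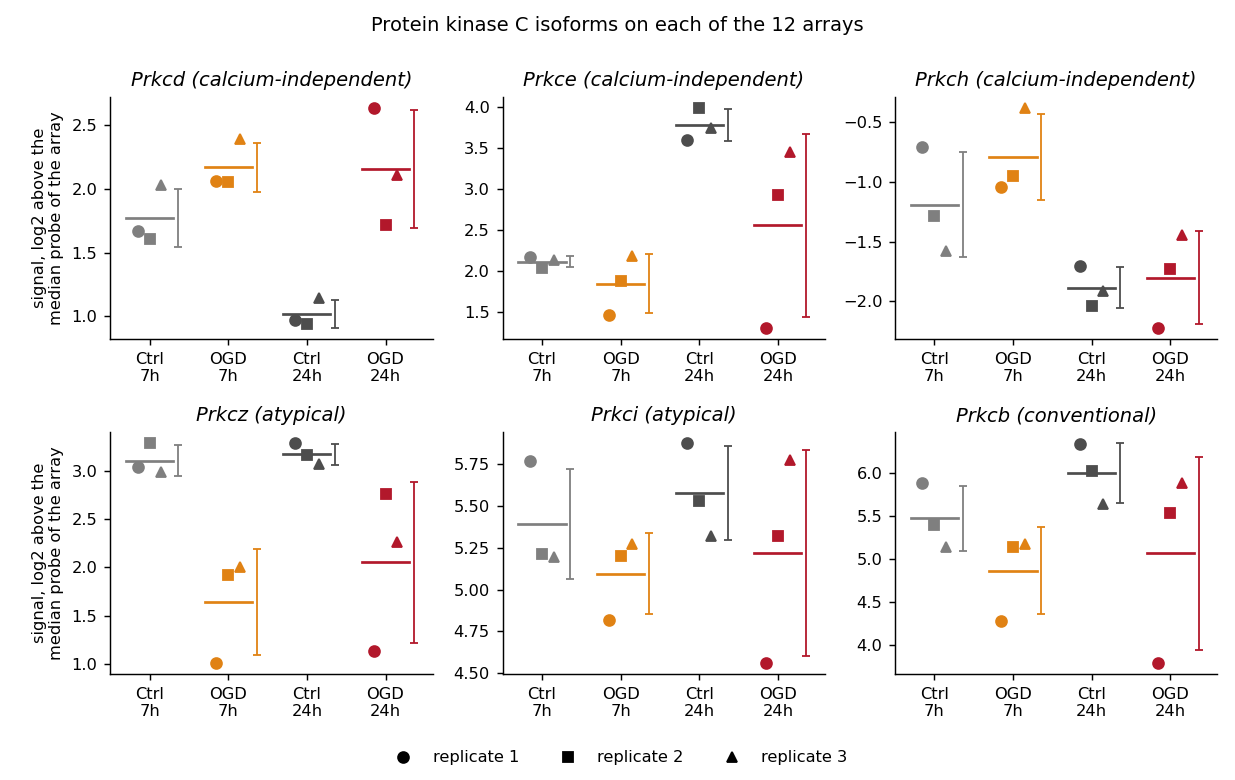
Signal of each PKC isoform on the 12 arrays, as log2 above the median probe of the array (vertical axis), by group (horizontal axis), with a scale of its own in each panel. Points are arrays with a symbol for each replicate number, the horizontal line is the group mean and the bar beside it 1 SD (n = 3). The Prkcd points of OGD 24h (1.72 to 2.63) lie above those of Ctrl 24h (0.94 to 1.15), and the Prkcz points of both OGD groups lie below their controls.

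Prkcd encodes PKCδ, an isoform known as a substrate of caspases and linked to apoptosis. Its probe (A_44_P451071, 10 spots on each array) read 0.97, 0.94 and 1.15 in the Ctrl 24h replicates and 2.63, 1.72 and 2.11 in the OGD 24h replicates. All 3 OGD arrays lay above all 3 controls, and the first replicate was the highest. The rise was 1.13 (SE 0.24, n = 3 per group), a 2.20-fold change past the unadjusted limma threshold, with a Benjamini-Hochberg adjusted p = 0.252.

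At 7 h the Prkcd probe read 1.67, 1.61 and 2.03 in controls and 2.06, 2.06 and 2.39 after OGD. The lowest OGD array lay just above the highest control. The difference of 0.40 (SE 0.24) did not pass (limma adjusted p = 0.519), although OGD was the higher array on 3 of 3 slides, by 0.36 to 0.45. The response at 24 h exceeded that at 7 h by 0.74 (SE 0.34), which narrowly missed the unadjusted threshold (limma interaction, adjusted p = 1.00). Control cultures were themselves lower at 24 h than at 7 h by 0.75 on the log2 scale without overlap, while the OGD groups differed by -0.01, so the 24 h contrast was taken against a lower control level. The 2 times were hybridised on different slides, and time and slide cannot be told apart.

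The Prkcd rise depended on the scaling between arrays. When arrays were scaled to a spike-in probe, which moved every change by -0.81 at 7 h and by -1.02 at 24 h, the 24 h difference of Prkcd was 0.11 and did not pass, and the 7 h difference was -0.41. With normexp background correction the values were 0.71 at 24 h, which passed, and -0.016 at 7 h.

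Prkce encodes PKCε, an isoform known from ischemic preconditioning and from presynaptic terminals. Its probe (A_64_P019628) read 3.60, 3.99 and 3.75 in Ctrl 24h and 1.31, 2.93 and 3.45 in OGD 24h. The groups did not overlap, but the OGD arrays spread widely and the third OGD replicate lay close to the controls. The change was -1.22 (SE 0.44, n = 3 per group), a 2.33-fold decrease past the unadjusted limma threshold, with an adjusted p = 0.309. Without the first OGD 24h replicate the change was -0.59 and still passed, and without the second Ctrl 24h replicate it was -1.11 and missed the threshold.

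A different Prkce probe (A_64_P023523) read 2.84, 3.15 and 3.02 in Ctrl 24h and 1.33, 2.18 and 2.14 in OGD 24h. Here all 3 OGD arrays lay well below the controls, and replicates 2 and 3 were alike. The change was -1.12 (SE 0.25, limma adjusted p = 0.252), which passed unadjusted with a smaller error than at the brighter probe. The direction of the 24 h change was thus the same at both Prkce probes.

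At 7 h the brighter Prkce probe read 2.17, 2.04 and 2.14 in controls and 1.47, 1.89 and 2.18 after OGD, and the groups overlapped. The difference was -0.27 (SE 0.44, limma adjusted p = 0.841) at this probe and -0.36 (SE 0.25, adjusted p = 0.589) at the other, and neither passed. Responses at the 2 times differed by -0.95 at the brighter probe, which did not pass (SE 0.63, limma interaction, adjusted p = 1.00). At the other probe they differed by -0.76 (SE 0.36), which narrowly missed the unadjusted threshold.

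The control level of Prkce moved more between the times than any other isoform. Ctrl 24h exceeded Ctrl 7h by 1.66 on the log2 scale at the brighter probe and by 1.09 at the other, without overlap in either. This was a description with no test, since 3 control arrays of each time share neither slide nor scan, and 1.42% of all probes were higher by a fold of 2 or more in the same comparison while 6.78% were lower. Mean Prkce signal in OGD 24h was 0.45 above that in Ctrl 7h at the brighter probe and -0.03 relative to it at the other, so OGD 24h was low against the controls of that time and not against the earlier ones. For Prkch, Ctrl 24h minus Ctrl 7h was -0.70 without overlap, and for Prkcb (0.53) and Prkci (0.18) the control groups overlapped.

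Prkcz encodes PKCζ, the atypical isoform that in brain also gives rise to PKMζ, a short form without the regulatory domain that has been studied in synaptic plasticity. Which of the 2 forms the probe reads was not tested. The probe (A_44_P406474, 10 spots) read 3.04, 3.28 and 2.99 in Ctrl 7h and 1.00, 1.91 and 2.0 in OGD 7h. Every OGD array was below every control, and the first OGD replicate was the lowest.

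The Prkcz change at 7 h was -1.46 (SE 0.38, n = 3 per group), a 2.76-fold decrease past the unadjusted limma threshold, with an adjusted p = 0.262. It passed the unadjusted threshold in every setting tried, with changes from -1.64 to -1.15 when single arrays were left out. Of the isoforms, Prkcz was the only one called at 7 h in the fit as designed.

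At 24 h Prkcz read 3.29, 3.16 and 3.07 in controls and 1.14, 2.76 and 2.26 after OGD. The groups were again apart, with the first OGD replicate far below the other two. The change was -1.12 (SE 0.38, 2.17-fold lower, limma adjusted p = 0.294) and passed unadjusted, and without that replicate it was -0.66 and still passed. Responses at 24 h and 7 h differed by 0.34 (SE 0.54, limma interaction, adjusted p = 1.00), and control cultures differed by 0.07 between the times.

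Prkcb encodes PKCβ, a conventional isoform activated by calcium and diacylglycerol together. Its brighter probe (A_64_P047281) read 6.34, 6.03 and 5.64 in Ctrl 24h and 3.78, 5.54 and 5.88 in OGD 24h. The groups overlapped, because the third OGD replicate lay above the third control while the first lay far below the other arrays of that time. The change was -0.94 (SE 0.49) and did not pass (limma adjusted p = 0.423). Without the first OGD 24h replicate it was -0.29, and without the third it was -1.34 and passed.

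The other Prkcb probe (A_64_P019599), assigned through a different RefSeq transcript of the gene, gave -0.95 at 24 h (SE 0.43, limma adjusted p = 0.365), which narrowly missed the unadjusted threshold, with OGD lower on 3 of 3 slides. The smallest of those 3 differences was -0.04, so the groups were barely apart. At 7 h the changes were -0.61 (SE 0.49, limma adjusted p = 0.643) and -0.35 (SE 0.43, adjusted p = 0.779), with overlapping groups at both probes.

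Prkci encodes PKCι, the atypical isoform of the Par polarity complex. Its brighter probe (A_42_P602880, 10 spots) ranged from 5.20 to 5.77 in Ctrl 7h, 4.82 to 5.27 in OGD 7h, 5.32 to 5.88 in Ctrl 24h and 4.56 to 5.78 in OGD 24h, overlapping at both times. The differences were -0.30 (SE 0.31, limma adjusted p = 0.730) at 7 h and -0.36 (SE 0.31, adjusted p = 0.608) at 24 h. A second probe (A_64_P019643) gave 0.20 (SE 0.20, limma adjusted p = 0.715) at 7 h, opposite in sign, and -0.29 (SE 0.20, adjusted p = 0.521) at 24 h. In contrast with Prkcz, the other atypical isoform, neither Prkci probe passed at either time, and a difference between the 2 genes was not tested.

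Prkch encodes PKCη, of the same class as PKCδ and PKCε and best known from epithelia and lymphocytes. Its probe (A_64_P019638) was below the array median throughout, from -1.57 to -0.71 in Ctrl 7h, -1.04 to -0.38 in OGD 7h, -2.04 to -1.70 in Ctrl 24h and -2.22 to -1.45 in OGD 24h. OGD and control overlapped at both times, with differences of 0.40 (SE 0.29, limma adjusted p = 0.596) at 7 h and 0.085 (SE 0.29, adjusted p = 0.939) at 24 h. With arrays centred on the 75th percentile, which shifted the median change of all probes by 0.11, the 7 h difference of Prkch was 0.51 and passed.

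For 0 of the 6 isoforms did the change at 24 h differ from that at 7 h at an unadjusted limma p below 0.05, a test passed by 3.58% of all probes. In the fit as designed, the isoforms called at 1 time are therefore not shown to respond differently at the 2 times. Some alternatives passed this test. For Prkcd the difference passed without dim probes (0.74), without replicate 3 of OGD 7h (0.85) and without replicate 2 of OGD 24h (0.95). For Prkce it passed with array quality weights (-0.80) and without replicate 3 of OGD 24h (-1.39), and for Prkcz with array quality weights (0.91).

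**Figure D2:**
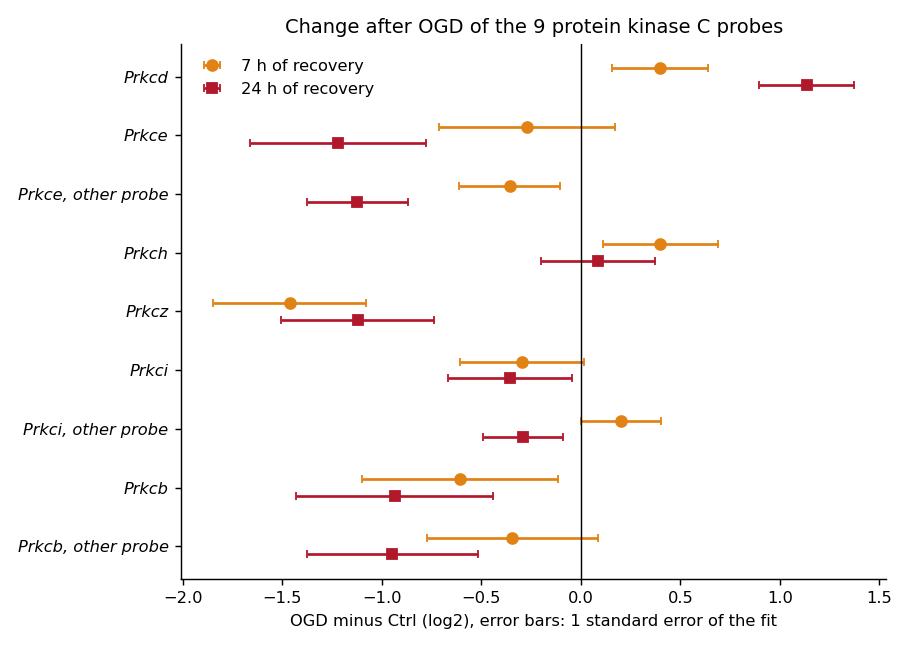
Change after OGD (OGD minus Ctrl, log2, horizontal axis) at each of the 9 PKC probes (rows) after 7 h and 24 h of recovery, with bars of 1 standard error from the limma fit (n = 3 arrays per group). Prkcd lies to the right of 0 at 24 h (1.13), both Prkce probes lie to the left at 24 h (-1.22 and -1.12), and Prkcz lies to the left at both times (-1.46 and -1.12).

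Prkcd and Prkce were then set against each other within each array, where scaling between arrays cancels. The difference of their 2 log2 signals is not a ratio of transcripts, since the probes differ, but its shift between groups can be compared. At 7 h, Prkcd minus Prkce was -0.50, -0.43 and -0.11 in controls and 0.59, 0.17 and 0.20 after OGD. Each OGD array was above each control.

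The shift at 7 h was 0.67, in the direction of Prkcd on 3 of 3 slides (0.31 to 1.09). At 24 h the difference was -2.63, -3.05 and -2.60 in controls and 1.32, -1.21 and -1.34 after OGD, again without overlap. The shift at 24 h was 2.35, a 5.11-fold change in the ratio of the 2 signals, on 3 of 3 slides (1.26 to 3.96). Without the first OGD 24h replicate it was 1.49.

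The exact two-sided permutation test gave p = 0.10 at both times, the smallest that 3 arrays against 3 can give, and so could not pass 0.05. With the other Prkce probe the shifts were 0.76 at 7 h and 2.26 at 24 h. Between the control groups the same difference fell from a mean of -0.35 at 7 h to -2.76 at 24 h, the step set by the higher Prkce and lower Prkcd of the later controls. The OGD 24h mean was -0.41.

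**Figure D3:**
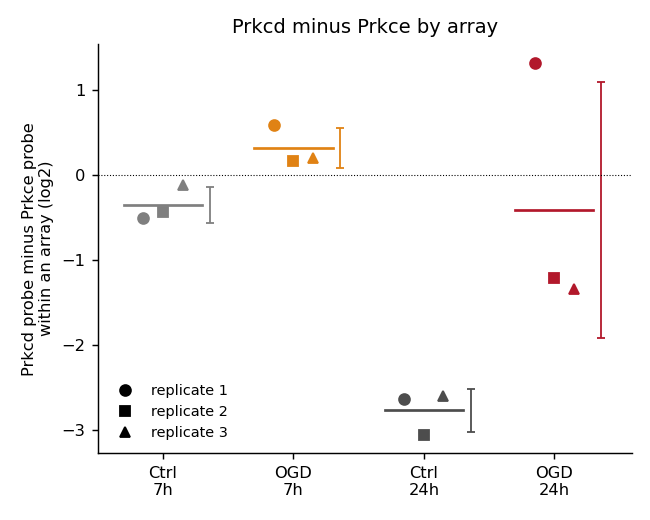
Prkcd probe minus Prkce probe within each array (log2, vertical axis) by group (horizontal axis). Points are arrays, lines are group means and bars 1 SD (n = 3). OGD arrays lie above their controls at both times, and 1 OGD 24h array (1.32) lies far above the other two (-1.21 and -1.34).

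Many neuronal transcripts were lower at 24 h, the time at which both Prkce and Prkcz fell. Of 19 neuron markers with a probe, 3 were called lower at 7 h and 13 at 24 h, none higher, with medians of -0.49 and -0.77. Of all probes, 7.03% were called lower at 7 h and 6.19% at 24 h. The summed signal of the list, in multiples of the array median, was 819 to 1194 in Ctrl 24h and 361 to 817 in OGD 24h, lowest on the first OGD 24h replicate, which also had the lowest Prkce, Prkcz, Prkcb, Prkci and Prkch of its group and the highest Prkcd. At 7 h the sums were 748 to 969 in controls and 655 to 907 after OGD, and overlapped. The part of this in the isoform changes was not tested.

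Markers of other cell types were read in the same way, beside 4.79% of all probes called higher and 7.03% lower at 7 h. At 24 h these shares were 7.51% and 6.19%. Of 15 astrocyte markers 2 were called higher at 7 h and 0 at 24 h, with sums of 1385 to 1614 in Ctrl 7h, 1786 to 2288 in OGD 7h, 1539 to 1745 in Ctrl 24h and 1661 to 1855 in OGD 24h, apart at 7 h and overlapping at 24 h. Of 16 microglia markers, 1 was called higher at 7 h and 2 at 24 h, with 1 of the 16 on no array well above background. Their summed signal was 49.6 to 70.2 in Ctrl 7h, 61.2 to 74.97 in OGD 7h, 60.3 to 73.1 in Ctrl 24h and 61.5 to 99.7 in OGD 24h. Of 14 oligodendrocyte markers, 7 h gave 1 higher and 2 lower, and 24 h gave 1 higher. Of 15 vascular and fibroblast markers, 3 were called lower at 7 h and 2 higher at 24 h, when their sums were 40.0 to 154 in controls and 137 to 247 after OGD. The part of these cells in the Prkcd rise was not tested.

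The genes around PKC in its pathway were read from 7 lists, 62 genes with a probe of 74 listed. At 7 h 4 were called higher and 6 lower, with a median change of -0.10, and at 24 h 6 were called higher and 11 lower, with a median of -0.15. A call is again an unadjusted limma p below 0.05, and none passed after Benjamini-Hochberg adjustment over all probes. Among all probes, upward calls made up 4.79% at 7 h and 7.51% at 24 h. Downward calls made up 7.03% and 6.19% at the same times. The counts of each list below are to be read beside these shares. Genes that also reached a fold of 2 are given with their error or adjusted p, and the others that were called, with Unc13c, were named after their values were seen. The spike-in scaling moves these changes by the same -0.81 and -1.02 as above, so a rise smaller than that turns sign under it.

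Upstream of PKC, phospholipase C enzymes make diacylglycerol and diacylglycerol kinases remove it. None of 11 phospholipase C genes was called at 7 h, and 3 were called higher and 1 lower at 24 h. Plcd1 rose by 1.00 and Plcb3 by 0.45, while Plcb1, an abundant neuronal form, fell by 0.93. Plcb2 also passed (limma adjusted p = 0.348), but it was well above background on 1 array of OGD 24h and 0 of Ctrl 24h, and no fold is given. Of 5 diacylglycerol kinases, none was called at 7 h and 2 were lower at 24 h, namely Dgkg with -1.02 (SE 0.39, limma adjusted p = 0.315) and Dgka with -0.66.

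Among 9 genes for the maturation and shutdown of PKC, Mtor was lower at 7 h (-0.72), and none was called at 24 h. Among 12 anchors and partners, Pick1, which binds PKCα at synapses, fell at 7 h by 1.08 (SE 0.28, limma adjusted p = 0.255), and its 24 h difference was -0.45 (adjusted p = 0.470). Pard6b, a scaffold of atypical PKC, was lower at 7 h (-0.69), and at 24 h Pard6a was lower (-0.79) while Pard6g (0.55) and Cavin3 (0.83), which binds PKCδ, were higher.

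Among 12 substrates, Add2 was higher at 7 h (0.52) and lower at 24 h (-0.87). Also called at 24 h were Nrgn, the postsynaptic calmodulin-binding substrate (-0.97), and Plek, the pleckstrin of blood cells. Plek was higher, but its probe was well above background on 0 of 12 arrays, and no fold is given. Add2 and Nrgn are abundant in neurons, and the neuron markers were also lower at 24 h, but a link was not tested. Gap43 of the same list was not called at 24 h (-0.20).

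The largest changes among the lists were in 11 other diacylglycerol receptors, proteins outside the PKC family that bind the same lipid. At 7 h 2 were called higher and 3 lower, and at 24 h 0 higher and 4 lower. Rasgrp1, an activator of Ras, was well above background on all 3 Ctrl 7h arrays and on none of OGD 7h. It was at least 1.95-fold lower after OGD at 7 h (limma adjusted p = 0.193). At 24 h its fitted change was -1.72 (SE 0.41, limma adjusted p = 0.252). Its probe was then well above background on 3 Ctrl 24h arrays but only 2 OGD 24h arrays, so the size of that fall is uncertain. Rasgrp2, which acts on Rap, fell by 1.38 at 7 h (SE 0.40, limma adjusted p = 0.270).

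The Munc13 family, which primes synaptic vesicles, was split. Unc13b fell by 1.61 at 7 h (SE 0.39, limma adjusted p = 0.240) and by 0.96 at 24 h (adjusted p = 0.329), whereas Unc13c rose by 1.30 (adjusted p = 0.280) and Unc13a by 0.90 (adjusted p = 0.365) at 7 h and neither was called at 24 h (-0.03 and -0.27). The chimaerins Chn1 and Chn2, which switch off Rac, were lower at 24 h, with changes of -1.39 (SE 0.49, limma adjusted p = 0.297) and -0.82. Neither of 2 PKC-related kinases of the PKN family was called at either time.

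**Figure D4:**
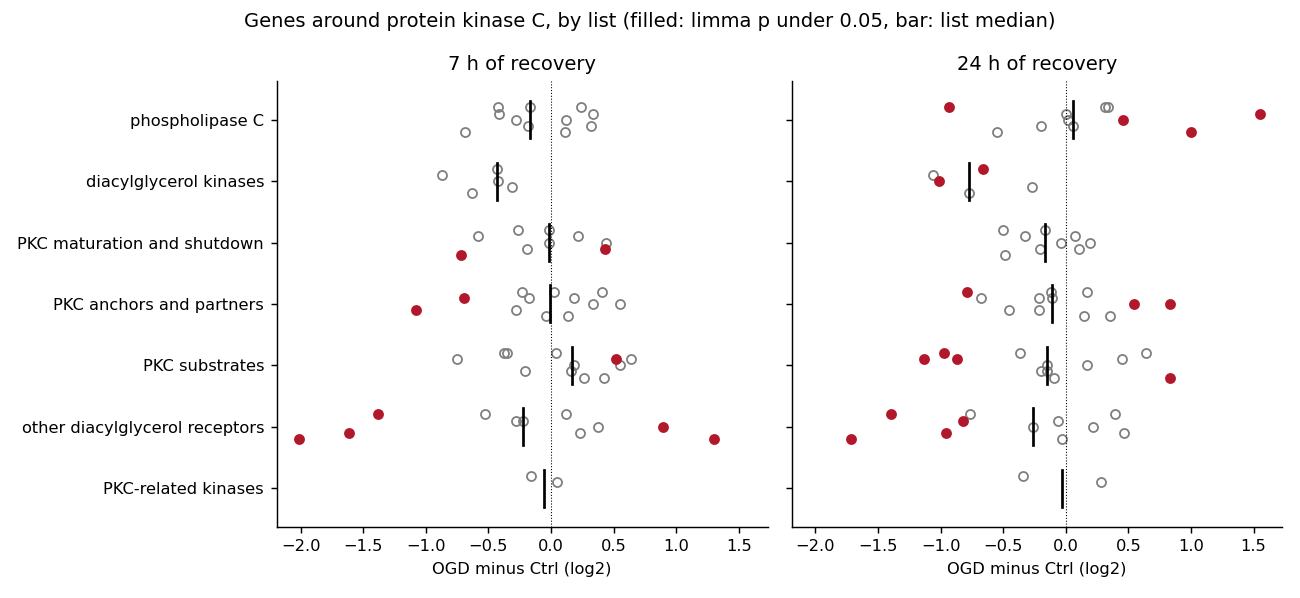
Change after OGD (OGD minus Ctrl, log2, horizontal axis) of 62 genes around PKC, by list (rows), at 7 h (left) and 24 h (right). Each circle is a gene on its brightest probe, filled where limma p was below 0.05, and the bar is the list median. Plcb2 and Plek, which were dim, and Rasgrp1, which was dim after OGD, are drawn at their fitted values. Filled circles of the other diacylglycerol receptors lie on both sides of 0 at 7 h (2 higher, 3 lower) and on the left at 24 h (4 lower).

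The genes whose pattern was most like each of the contrasted isoforms were ranked by Pearson r over the 12 arrays, among 10894 named genes well above background on all arrays. The 12 arrays share their scaling and fall into 4 groups, so r covers differences between groups and is given as a description. For Prkcd they were Plp2 (r = 0.964), Bnip2 (0.962), Tmed10 (0.957), Myo1d (0.949) and Gtse1 (0.935), with changes at 24 h of 2.39, 0.73, 0.43, 0.74 and 0.79 in the same order. For Prkce they were Taf10 (r = 0.982), Eef1a2 (0.973), Pacsin1 (0.969), Celf2 (0.969) and Nlgn1 (0.969). Their changes at 24 h were -0.26 for Taf10, a subunit of the general transcription machinery, -1.09 for Eef1a2, a translation elongation factor of neurons and muscle, -0.84 for Pacsin1, -0.44 for Celf2 and -1.01 for Nlgn1, a postsynaptic adhesion protein.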

How the data were processed

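Total RNA of 12 samples was labelled with Cy3 by the authors and hybridised to 1-colour whole-genome rat oligonucleotide arrays (Agilent, designed on rn4), 1 sample per array. The methods name independent cultures as replicates without saying which arrays share a culture. The deposited intensity values were made with Agilent Feature Extraction, which subtracted background and trends across the array without scaling between arrays. A table of log2 values deposited by the authors held the same intensities after median centring, to within 1 constant per array.

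From the intensities, outlier spots as marked by the software were dropped. Log2 values of the remaining spots were averaged by probe and centred on the array's median, after the authors' methods. This centring sets the median change of all probes near 0 and hides a change shared by most transcripts. Probes were named through the RefSeq transcript in the array files, with 17996 of 30367 probes and 15148 genes matched to the GRCr8 gene table. Groups were taken from the sample titles.

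Differences were tested two-sided with limma 3.58.1 (R 4.3.3), with all 4 groups in 1 fit and Benjamini-Hochberg adjustment over 30367 probes. A call is an unadjusted p below 0.05, with a fold of 2 where stated, as in the authors' methods. Prkcd minus Prkce was tested by exact permutation over arrays. The pipeline was tested on simulated data. Precision is limited by 3 arrays per group. Figures were drawn with matplotlib.

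The members, lists and tests were chosen with earlier results of these data known. Named genes were the isoforms, from each pathway list at most 4 genes past p 0.05 and a fold of 2 at either time, and the 5 genes most correlated with Prkcd and with Prkce. Values of some listed genes are not reported here. Alternatives covered scaling, background correction (normexp with offset 50 on the median spot signal), a filter on dim probes, the authors' own log2 values, the methods' t-test, each time alone, the slide as a block, array weights, other probes and leaving out single arrays. Each of 6 slides held the control and OGD array of 1 time and replicate number. On 3 slides the 2 were scanned apart. The gap was 177 minutes for replicate 1 at 24 h, the slide with the OGD array of lowest median intensity. For replicates 1 and 2 at 7 h it was 211 minutes.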

Additional observations from a re-analysis of the deposited data

How the results depend on the processing

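With 3 arrays per group and no probe past adjustment, every call rests on an unadjusted p. The count of isoforms called at 7 h was 2 (1 higher, 1 lower) with arrays centred on the 75th percentile and 3 (2 higher, 1 lower) with array quality weights, under which 13890 of 30367 probes passed, and 1 when any single array was left out. At 24 h it was 1 (0 higher, 1 lower) with arrays scaled to the spike-in probe, 1 (1 higher, 0 lower) with the methods' t-test and 4 (1 higher, 3 lower) with array quality weights, under which 10549 probes passed, and 2 to 4 with single arrays left out (2 without replicate 2 of Ctrl 24h, 4 without replicate 3 of OGD 24h). The methods' t-test called neither Prkcz nor the brighter Prkce probe at 24 h, and limma on each time alone did not call that Prkce probe. Values of the other Prkce probe in these settings are not reported here. The spike-in scaling rests on 1 usable probe of 10. The shift of Prkcd minus Prkce ranged from 0.53 to 0.79 at 7 h and from 1.49 to 2.82 at 24 h with single arrays left out.

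Signs turned only in values that were not called. With the spike-in scaling Prkcd read -0.41 and Prkch -0.41 at 7 h, and Prkch -0.94 at 24 h. With quantile normalization Prkch read -0.034 at 24 h and the Prkci difference between times 0.0067. With normexp Prkcd read -0.016 at 7 h, and the differences between times were 0.0011 for Prkch and 0.11 for Prkci. The other Prkci probe read 0.20 at 7 h. With single arrays left out, Prkch at 24 h ranged from -0.092 to 0.30, and the difference between times from -0.74 to 0.32 for Prkcb, -0.34 to 0.27 for Prkci and -0.011 to 0.80 for Prkcz. The cause was not tested. Over all settings, 395 values of single isoforms kept direction and side of the threshold, 11 crossed it upwards, 6 downwards and 17 turned sign.

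Arrays of 1 slide share a replicate number. Their deviations from the group means correlated by -0.03, 0.31 and 0.18 at 7 h and -0.12, 0.16 and -0.19 at 24 h. Control and OGD arrays of different slides gave -0.30 to 0.09 at 7 h and -0.24 to 0.26 at 24 h. With 3 arrays per group, these values cannot decide whether the replicate numbers pair the arrays. With slide as a replicate block the counts were 1 at 7 h and 3 at 24 h, and no call of an isoform changed. The shifts of Prkcd minus Prkce stayed at 0.67 and 2.35, as they must when each slide holds 1 control and 1 OGD array. An exact test that flips the signs of the slide differences gave p = 0.25 at both times, the smallest that 3 slides can give.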
